A study of Canis lupus familiaris with 59 samples.

Results

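The 7 genes described here are ENSCAFG00000007276, ENSCAFG00000019204, ENSCAFG00000030565, ENSCAFG00000019685, ENSCAFG00000012976, ENSCAFG00000009243 and ENSCAFG00000029284, out of 28570 Ensembl gene identifiers measured in dog adrenal tissue. They were chosen because their mean was lower in cortisol-secreting adrenocortical tumours than in normal adrenal cortex while the SD of their log2 level over the normals stayed under 1.5. They were thus selected on the group means and on the spread over the normals. Fold changes, edgeR calls and group overlaps below therefore rest on the values that chose the genes, and they are given as a description that supports nothing. The permutation tests of co-variation and of depth within the tumours are on relations that the choice did not use. Those of co-variation within the normals run on the values whose SD the choice limited, and they are also given as a description.

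The adrenal cortex is the steroid-producing shell of the adrenal gland, and its inner zones make cortisol under the control of the pituitary hormone ACTH. An adrenocortical tumour can release cortisol without that control, which leads to the signs of Cushing's syndrome in dogs. The authors sequenced 49 libraries labelled as such tumours and 10 labelled as healthy normal cortex with CEL-Seq2, a method that reads the 3′ end of each transcript and counts molecules by random tags (UMIs). The labels give no breed, sex, age, treatment or tumour subtype, and they do not tie libraries to dogs. The p-values therefore cover only the spread between these libraries, which may include libraries of 1 animal. Libraries are named below by the numbers in their titles, tumours 1 to 49 and normals 1 to 10.

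Totals ran from 1007920 to 5449077 counts per library, with a median of 2112802. All 7 genes passed the filter on low counts that left 13004 genes to test, and the counts of 6 of them used at most 30.7% of the pool of UMIs. ENSCAFG00000029284 came near its end, with values given below. For 0 of the 28570 identifiers did the reference table give a symbol, so no function is given for any of the 7 genes, no sequence is shown, and the labelled tissue could not be checked against marker genes. In pieces of tissue, fewer cells of one type and less RNA per cell cannot be told apart.

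In the comparison of tumours with normals by edgeR's quasi-likelihood test, 66 of 13004 genes were lower in tumours at an adjusted p under 0.05, which is 0.508% of the genes tested. All 7 genes were among these 66, and nothing is read from that, since the choice used this difference. Of the 66 genes, 50 had an SD under 1.5 over the normals, so the 7 are a selection from those 50. The median log2 fold change was -1.30 for the 7 genes, -0.65 for the 43 genes of the 50 that were not chosen, and 0.02 for all genes tested. Of those 43 genes, 8 had a fold change at least as large as the least changed of the 7.

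The spread over the normals was narrower than the limit but was not narrow among genes in general. The SD of log2 CPM (counts scaled to a common library total) over the 10 normals ran from 0.78 for ENSCAFG00000007276 to 1.36 for ENSCAFG00000029284, against a median of 0.55 for all genes tested. Between 77.5% of genes, for ENSCAFG00000007276, and 96.0%, for ENSCAFG00000029284, had a smaller SD over the normals. Among the 66 genes called lower, the nearest to the limit were ENSCAFG00000019185 inside it, which was not chosen, at 1.43, and ENSCAFG00000019190 outside it, at 1.52. Among tumours the SDs were smaller for each of the 7 genes, from 0.56 for ENSCAFG00000007276 to 1.07 for ENSCAFG00000029284, where the median gene had 0.51.

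ENSCAFG00000007276 had the most tumours below every normal with TMM scaling, and not with library totals alone. Its level was 17.7 CPM in the lowest normal, 22.6 CPM in the median normal and 96.3 CPM in the highest. Tumours ran from 3.68 CPM in tumour 31 over a median of 14.4 CPM to 37.9 CPM in tumour 23. The tumours were low as a body, and 38 of 49 (77.6%) lay below every normal. The normals bunched at the bottom of their range, where 6 of them held between 17.7 and 23.2 CPM, while normal 6 (96.3 CPM), normal 2 (51.6 CPM) and normal 3 (38.6 CPM) stood above every tumour. The normals had a mean of 33.3 ± 24.7 CPM (SD, n = 10) and the tumours one of 14.8 ± 5.97 CPM (SD, n = 49), a log2 fold change of -1.17 ± 0.20 (SE). The ratio of the group medians was smaller, at -0.64 on the log2 scale. The count of 38 rests on small gaps near the lowest normal: scaling by library totals alone, without TMM factors, gave 23, fewer than the 27 for ENSCAFG00000019204.

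ENSCAFG00000019204 had 29 tumours below every normal. Normals ran from 63.9 CPM in normal 1 over a median of 129 CPM to 305 CPM in normal 5. Tumours ran from 24.1 CPM in tumour 33 over a median of 58.1 CPM to 259 CPM in tumour 32, with tumour 48 at 231 CPM. The median tumour therefore lay below the lowest normal, and 1 normal lay above every tumour. The log2 fold change was -1.05 ± 0.22 (SE), the smallest of the 7. The ratio of the group medians was larger in size, at -1.15 on the log2 scale.

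ENSCAFG00000030565 and ENSCAFG00000019685 each had 21 tumours below every normal and 3 normals above every tumour. For ENSCAFG00000030565 the normals ran from 22.1 CPM over a median of 54.2 CPM to 158 CPM in normal 6, and the tumours from 7.80 CPM over a median of 24.4 CPM to 118 CPM in tumour 22. Its normals fell into a high set, with normal 10 at 146 CPM, normal 3 at 148 CPM and normal 6, and 7 others at 68.4 CPM or less. The log2 fold change was -1.30 ± 0.27 (SE).

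ENSCAFG00000019685 was counted least. Normals held 4 to 128 counts and tumours 0 to 41, with a median tumour count of 6. In CPM the normals ran from 3.06 in normal 6 over a median of 9.74 to 40.5 in normal 4, and the tumours from 0 in tumour 32 over a median of 3.53 to 16.9 in tumour 25. The count of 0 in tumour 32 allows a level of up to 2.19 CPM (3 counts), for counting error only. The groups overlapped, with 28 tumours inside the range of the normals. At the median tumour count, counting alone gives a coefficient of variation of 40.8%, and the tumours' coefficient of variation was 82.8%. The log2 fold change was -1.63 ± 0.34 (SE), the largest of the 7.

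The other 3 genes had fewer tumours below every normal when all 10 normals were used. ENSCAFG00000012976 ran from 28.1 to 283 CPM in normals, with a median of 50.7 CPM, and from 14.7 to 88.0 CPM in tumours, with a median of 33.6 CPM. For this gene 14 tumours lay below every normal and 35 within their range, and normals 5, 9 and 10 (144, 157 and 283 CPM) lay above every tumour. The log2 fold change was -1.29 ± 0.23 (SE), while the ratio of the group medians was smaller, at -0.59 on the log2 scale.

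ENSCAFG00000009243 had 6 tumours (12.2%) below every normal and 43 inside the normal range. Some tumours fall below all of 10 normals for a gene without a group difference too. With library totals alone 12 lay below, against 10 for ENSCAFG00000012976 and 9 for ENSCAFG00000029284. Normals ran from 104 CPM in normal 4 over a median of 299.9 CPM to 2006 CPM in normal 7, with normal 6 at 1147 CPM. Tumours ran from 41.6 CPM in tumour 4 over a median of 152 CPM to 740.4 CPM in tumour 2. The 2 highest normals stood above every tumour, and the ratio of medians, -0.98 on the log2 scale, was again smaller than the log2 fold change of -1.46 ± 0.30 (SE).

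ENSCAFG00000029284, like ENSCAFG00000019204, showed the reverse relation between median and mean. Normals ran from 457 CPM in normal 1 over a median of 2949 CPM to 6966 CPM in normal 5, and tumours from 242 CPM in tumour 18 over a median of 857 CPM to 4003 CPM in tumour 48. The ratio of medians was -1.78 on the log2 scale, against a log2 fold change of -1.58 ± 0.34 (SE). Its normals split into 4 between 5943 and 6966 CPM (normals 4, 5, 9 and 10), all above every tumour, and 6 between 457 and 3900 CPM. For this gene 9 tumours lay below every normal and 40 within their range. The deposited counts are corrected for UMI collisions, and this gene came near the end of the pool of UMIs that the correction assumes. Its highest count, 19874 in normal 4, stands for 4064 distinct UMIs (99.2% of the pool), where 1 more UMI would add 130 counts. Normals 5 and 10 were at 96.9% and 96.6% of the pool, and the highest tumour, tumour 15, at 89.5%. Distinct UMIs, the values before the correction, gave a log2 fold change of -0.91 and no edgeR call.

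**Figure D1:**
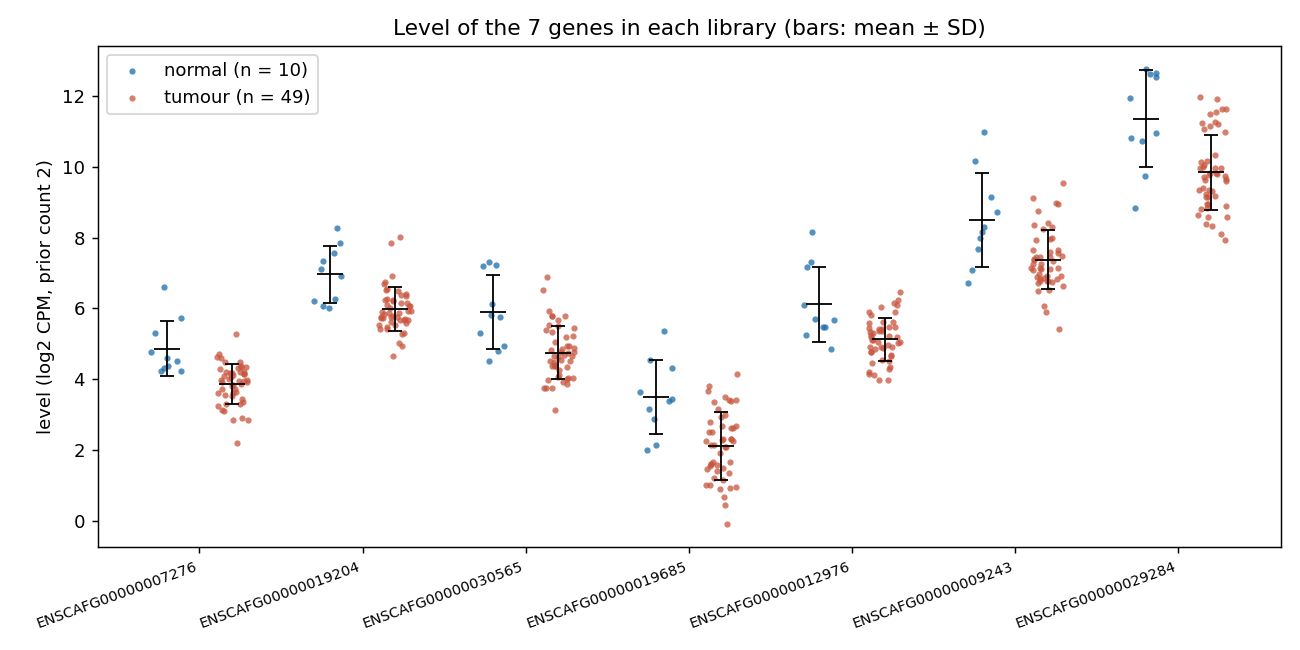
Level of each of the 7 genes in log2 CPM (vertical axis) in 10 normals (blue) and 49 tumours (red), 1 point per library, with the mean and SD in black. The groups overlap for all 7 genes, and with this TMM scaling 38 tumours lie below every normal for ENSCAFG00000007276 and 6 for ENSCAFG00000009243. With library totals alone these counts are 23 and 12, and the order of the genes changes.

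Counted over all 7 genes, no tumour lay above every normal for any of them, and no tumour lay below every normal for all of them. There were 4 tumours below every normal for 6 of the 7 genes (tumours 18, 21, 33 and 45), and 3 tumours for none (tumours 19, 22 and 41). The remaining 42 tumours were below every normal for 1 to 5 genes, with 2 genes (14 tumours) and 3 genes (12 tumours) the most frequent. The tumours below every normal were not counted for all genes tested, so there is no share to set beside these counts. These counts depend on the lowest normal of each gene. It was normal 1 for ENSCAFG00000019204 and ENSCAFG00000029284, and a different normal for each of the others: normal 5 for ENSCAFG00000007276, normal 8 for ENSCAFG00000030565, normal 6 for ENSCAFG00000019685, normal 2 for ENSCAFG00000012976 and normal 4 for ENSCAFG00000009243. For ENSCAFG00000012976 the count rose from 14 to 28 tumours without normal 2, for ENSCAFG00000009243 from 6 to 19 without normal 4, and for ENSCAFG00000029284 from 9 to 25 without normal 1.

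The normals that held the high levels differed between genes. Normal 6 was highest for ENSCAFG00000007276 and ENSCAFG00000030565, by 1.74 and 1.41 above the mean of the normals in log2 CPM, and next to highest for ENSCAFG00000009243 (1.67 above). The same normal 6 was the lowest for ENSCAFG00000019685, 1.49 below the mean. Normal 5 was highest for ENSCAFG00000019204 (1.30 above) and ENSCAFG00000029284 (1.41 above), and lowest for ENSCAFG00000007276 (0.65 below). Normal 4 was highest for ENSCAFG00000019685 (1.88 above) and lowest for ENSCAFG00000009243 (1.77 below). Normals 9 and 10 were each among the 3 highest for 4 of the 7 genes, and normals 1 and 8 were among them for 0.

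**Figure D2:**
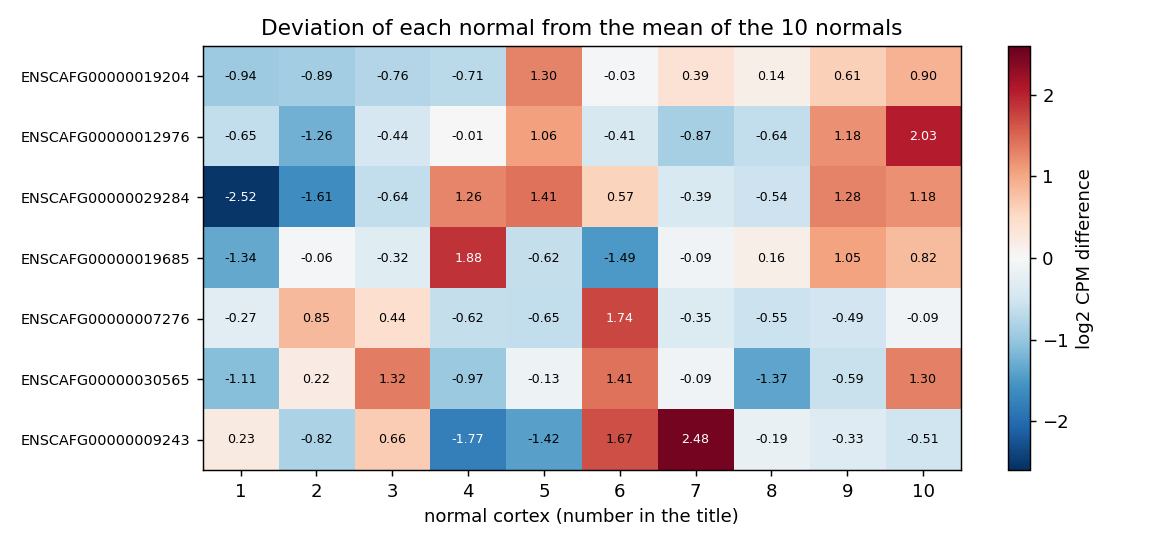
Deviation of each of the 10 normals (columns, by the number in the title) from the mean of the normals, in log2 CPM, for the 7 genes (rows); red is higher and blue lower. Normals 5, 9 and 10 are high in the upper rows, and normal 6 is high in the 3 lowest rows and low for ENSCAFG00000019685, at -1.49.

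Single normals moved the fold changes, and single tumours did so little. With each normal left out in turn, the largest shrinkage was from -1.17 to -0.83 for ENSCAFG00000007276 (without normal 6), from -1.29 to -0.90 for ENSCAFG00000012976 (without normal 10) and from -1.46 to -0.95 for ENSCAFG00000009243 (without normal 7). ENSCAFG00000019685 went from -1.63 to -1.22 without normal 4, ENSCAFG00000019204 from -1.05 to -0.85 without normal 5, ENSCAFG00000030565 from -1.30 to -1.11 without normal 6, and ENSCAFG00000029284 from -1.58 to -1.42 without normal 5. In each case the normal left out was the highest one for that gene.

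The edgeR call was lost in 3 of these 10 fits. Without normal 5 neither ENSCAFG00000019204 nor ENSCAFG00000029284 was called, without normal 4 ENSCAFG00000019685 was not, and without normal 7 ENSCAFG00000009243 was not. In the same order, these fits called 0.213%, 0.712% and 0.294% of all genes tested lower, against 0.508% with all libraries. Since the genes were chosen on this difference in these libraries, a call that is kept is no sign of stability. With each of the 49 tumours left out in turn, the widest range of a fold change was from -1.73 to -1.59, for ENSCAFG00000019685. Limma-voom with sample weights did not call ENSCAFG00000012976 (log2 fold change -0.88) or ENSCAFG00000029284, and it called 0.192% of all genes tested lower. On tumours 1 to 10 and normals 1 to 10 alone, edgeR called 0 of the 7. It called few genes at all there, 0.0614% of 9769 without a block on title numbers and 0.0102% with it.

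**Figure D3:**
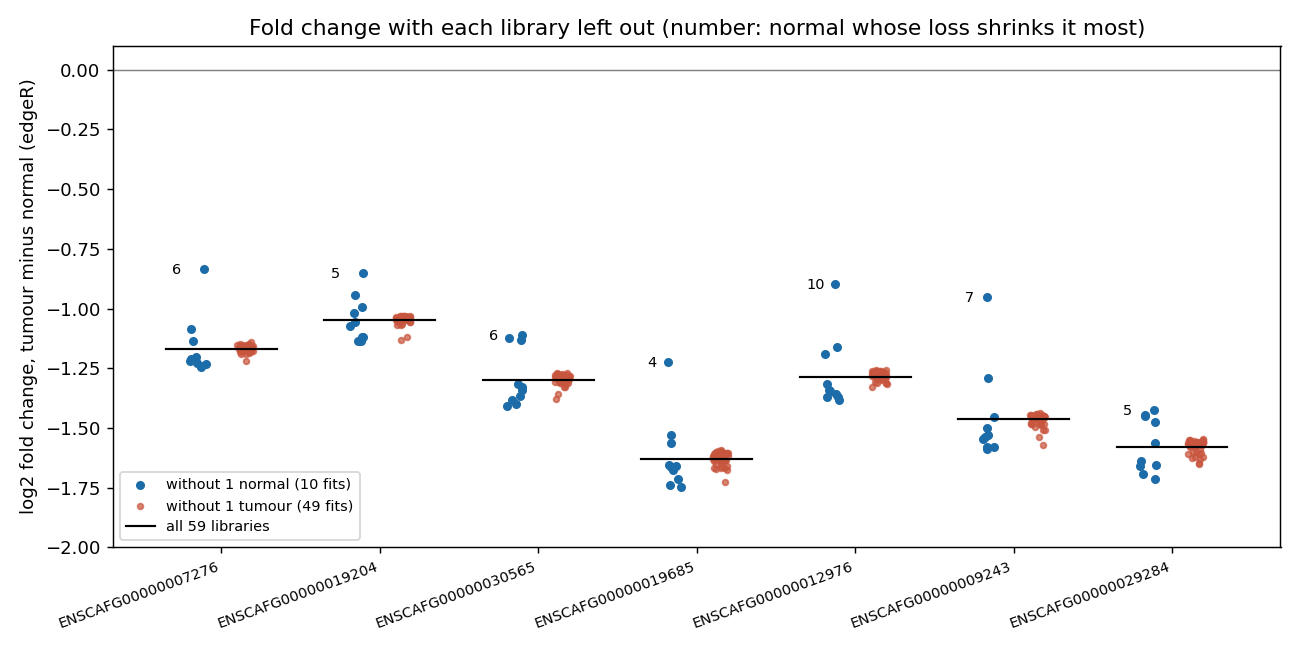
Log2 fold change, tumour minus normal, from edgeR (vertical axis) for the 7 genes with all 59 libraries (black line), without each normal in turn (blue, 10 fits) and without each tumour in turn (red, 49 fits); the printed number is the normal whose loss brings the value nearest to 0. Single normals move the value further than single tumours do, as for ENSCAFG00000009243, which goes from -1.46 to -0.95 without normal 7. A normal is 1 of 10 in its group and a tumour 1 of 49.

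Co-variation was measured over the 49 tumours alone, where the difference between the groups does not enter. Pearson's r and Spearman's rho of log2 CPM were computed for the 21 pairs among the 7 genes, with two-sided permutation tests (100000 permutations), and p-values were adjusted over the 91021 pairs of any of the 7 genes with any other gene tested. Of the 21 pairs, 20 had a positive r, with a median of 0.27 and a range from -0.07 to 0.59. The median r of each of the 7 genes with all other genes lay between -0.02 and 0.01. At an adjusted p under 0.05, 2 of the 21 pairs (9.52%) were positively related, where 0.767% of the 91021 pairs were. An unadjusted permutation p under 0.05 was reached by 9 of the 21 pairs, all of them positive, where 6.75% of the 91021 pairs were positive at that threshold.

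ENSCAFG00000019204 and ENSCAFG00000029284 were the most closely related pair. Pearson's r was 0.59 (permutation p = 1e-05, which 100000 permutations cannot go below, adjusted p = 0.0069) and Spearman's rho was 0.58 (permutation p = 2e-05, adjusted p = 0.0091). Without the 2 tumours farthest from the median of ENSCAFG00000019204, r was 0.54 (permutation adjusted p = 0.019). It was 0.79 within tumours 27 to 36, 0.78 within tumours 37 to 46 and 0.57 within the other 29 tumours. These runs of title numbers were singled out earlier from the resemblance of their libraries, and no label calls them batches. Among all other genes, ENSCAFG00000029284 ranked 14 by r with ENSCAFG00000019204. This pair was called in all 9 alternatives, with r from 0.54 to 0.61 and a permutation adjusted p from 0.0067 to 0.044.

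ENSCAFG00000030565 and ENSCAFG00000029284 were the other pair, with r = 0.50 (permutation p = 0.00029, adjusted p = 0.035) and rho = 0.49 (permutation p = 0.00044, adjusted p = 0.040). Its r was 0.47 without the 2 tumours farthest from the median of ENSCAFG00000030565 (permutation adjusted p = 0.062). Within tumours 27 to 36, tumours 37 to 46 and the other tumours it was 0.48, 0.44 and 0.58. The pair was called in 4 of 9 alternatives, with a permutation adjusted p from 0.031 to 0.11, and r stayed between 0.47 and 0.55.

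By Spearman's rho 3 of the 21 pairs were called, where 0.891% of the 91021 pairs were. ENSCAFG00000019204 and ENSCAFG00000012976 passed the threshold by rho, at 0.50 (permutation p = 0.00031, adjusted p = 0.034), but not by Pearson's r, at 0.43 (permutation p = 0.0017, adjusted p = 0.084). Without the 2 tumours farthest from the median of ENSCAFG00000019204, r was 0.51 (permutation adjusted p = 0.033). This relation was not alike across the runs, with r of -0.22 within tumours 27 to 36, 0.88 within tumours 37 to 46 and 0.60 within the other tumours, and it was 0.65 without tumours 27 to 36 (permutation adjusted p = 0.013) and 0.35 without tumours 37 to 46 (0.34). The pair was called in 3 of 9 alternatives. The difference between the runs was not tested. ENSCAFG00000009243 was little related to ENSCAFG00000007276 (r = 0.06), ENSCAFG00000030565 (0.07) or ENSCAFG00000019685 (-0.07).

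Among the 10 normals 12 of the 21 pairs had a positive r and 9 a negative one, with a median of 0.12. The permutation test called 0 of the 21 pairs after adjustment (0% of the 91021 pairs), and 4 were positive at an unadjusted p under 0.05, where 3.59% of the 91021 pairs were. These were ENSCAFG00000012976 with ENSCAFG00000029284 (r = 0.75, permutation p = 0.013, adjusted p = 0.65), ENSCAFG00000019204 with ENSCAFG00000012976 (r = 0.73, permutation p = 0.019, adjusted p = 0.66), ENSCAFG00000007276 with ENSCAFG00000030565 (r = 0.70, permutation p = 0.018, adjusted p = 0.66) and ENSCAFG00000019204 with ENSCAFG00000029284 (r = 0.69, permutation p = 0.028, adjusted p = 0.67). The pair of ENSCAFG00000007276 and ENSCAFG00000030565 had r = 0.04 among tumours. Whether r differed between normals and tumours was not tested.

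**Figure D4:**
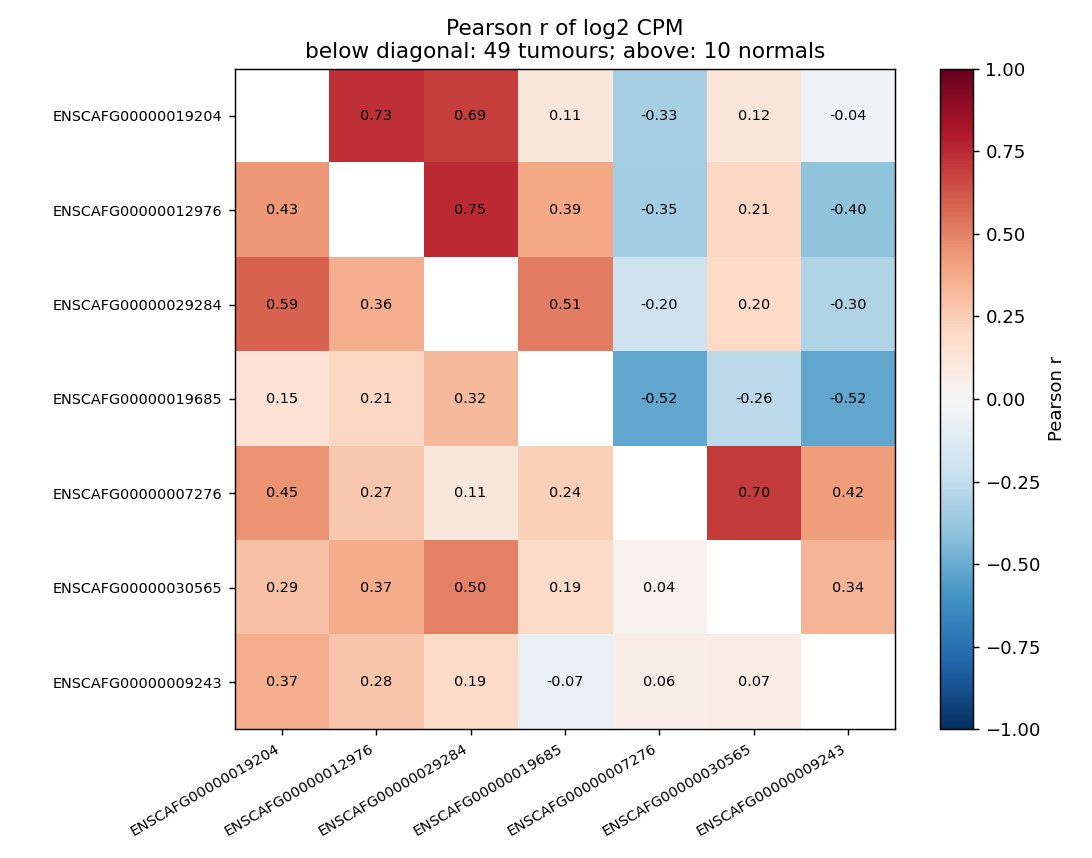
Pearson's r of log2 CPM for each pair of the 7 genes, over 49 tumours below the diagonal and over 10 normals above it. Among tumours the highest value is 0.59, for ENSCAFG00000019204 with ENSCAFG00000029284, and among normals 9 of the 21 values are negative.

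The runs of tumour numbers overlapped in level for all 7 genes, with medians that lay apart for some. ENSCAFG00000009243 lay between 89.2 and 124 CPM in all 10 of tumours 37 to 46, with a coefficient of variation of 10.4%, against 57.8% in tumours 27 to 36 and 71.7% in the other tumours. All 10 lay below the median of the other tumours, 163 CPM, and 2 of them below the lowest normal. ENSCAFG00000019685 had a median of 1.09 CPM in tumours 27 to 36, 2.79 CPM in tumours 37 to 46 and 4.08 CPM in the other tumours, and 8 of tumours 27 to 36 lay below every normal. ENSCAFG00000007276 had medians of 11.4, 11.7 and 16.8 CPM in the same order, and 9 of 10 tumours in each run lay below every normal, against 20 of the other 29. For ENSCAFG00000019204, ENSCAFG00000030565 and ENSCAFG00000012976 the medians of the 3 sets of tumours lay close together, as at 54.4, 56.7 and 60.0 CPM for ENSCAFG00000019204. ENSCAFG00000029284 had medians of 871, 957 and 798 CPM. These are descriptions with no test, since the labels do not set the runs.

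**Figure D5:**
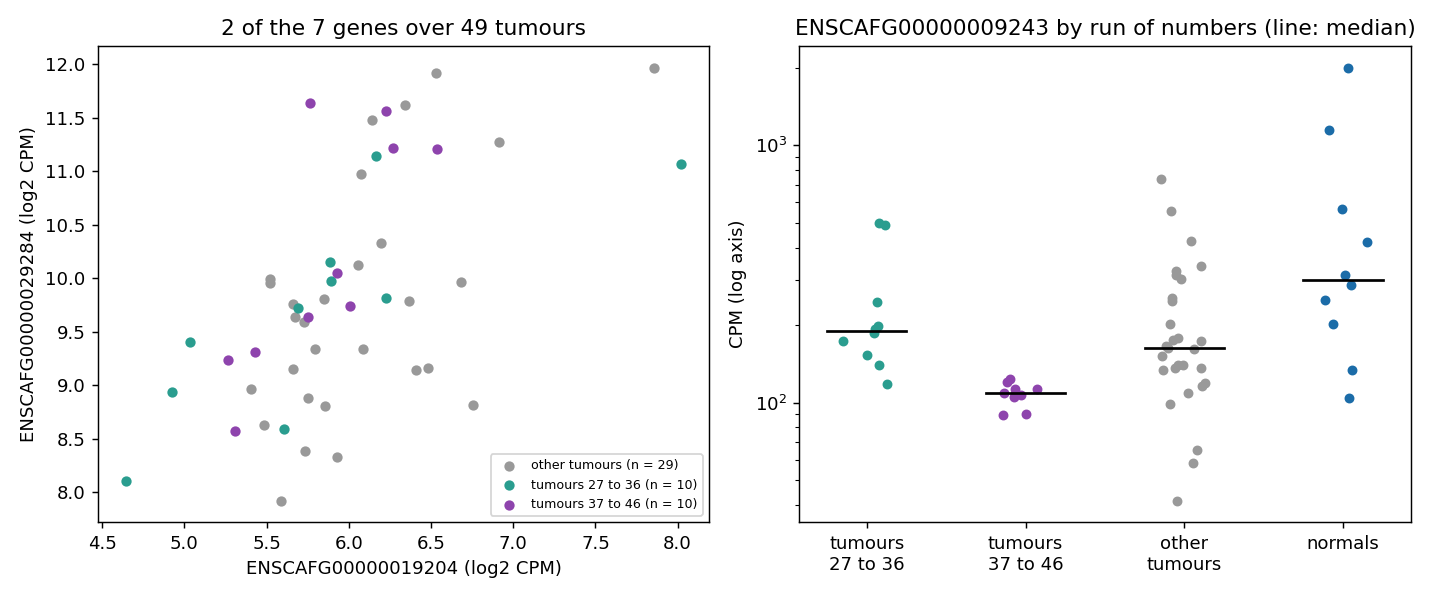
Left, ENSCAFG00000029284 against ENSCAFG00000019204 in log2 CPM over 49 tumours, coloured by run of title numbers. Right, ENSCAFG00000009243 in CPM (log axis) in the 3 sets of tumours and the 10 normals, with medians as lines; tumours 37 to 46 lie between 89.2 and 124 CPM.

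Depth was weakly related to the levels within the tumours. Pearson's r of log2 CPM with log2 total counts over the 49 tumours ran from -0.36 for ENSCAFG00000009243 to -0.003 for ENSCAFG00000012976, negative for all 7 genes. The median r over all genes tested was 0.008. The permutation test called 0 of the 7 after adjustment over 13004 genes, of which 0.0846% were called in either direction. ENSCAFG00000009243 was the only one with an unadjusted permutation p under 0.05 (r = -0.36, permutation p = 0.012, adjusted p = 0.34, and rho = -0.29, permutation p = 0.042, adjusted p = 0.48). Without the 2 tumours whose totals lay farthest from the median its r was -0.26 (permutation adjusted p = 0.64), and without tumours 37 to 46 it was -0.37. Over all 59 libraries, log2 total counts as a covariate moved the log2 fold change of ENSCAFG00000009243 from -1.46 to -1.13, the largest move of the 7. Normal 7, the highest normal for this gene, had the lowest total of the normals, 1062090 counts. Whether depth set its level was not tested.

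For each of the 7 genes, the gene most like it over the tumours was sought among the 6502 genes with an average level at or above the median. ENSCAFG00000009243 had the closest match, ENSCAFG00000022709, with r = 0.88 and rho = 0.91 over the 49 tumours. Each had a permutation p of 1e-05, the smallest possible here, and the adjusted p for r was 0.0069. The 2 genes had r = 0.87 without the 2 tumours farthest from the median, and r = 0.98 over the 10 normals. Within tumours 37 to 46, where ENSCAFG00000009243 varied little, r was 0.24, against 0.80 in tumours 27 to 36 and 0.92 in the other tumours.

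ENSCAFG00000019204 was most like ENSCAFG00000019190, the gene just outside the limit on the spread over normals (r = 0.75 and rho = 0.83 over tumours, and r = 0.79 over normals). ENSCAFG00000030565 was most like ENSCAFG00000012339 (r = 0.68 over tumours and 0.67 over normals), ENSCAFG00000029284 like ENSCAFG00000006545 (0.76 and 0.83) and ENSCAFG00000012976 like ENSCAFG00000006006 (0.59 and 0.68). For the remaining 2 genes r was positive over the tumours and negative over the normals, a difference that was not tested. ENSCAFG00000007276 and ENSCAFG00000036050 had r = 0.75 over tumours and -0.70 over normals, and ENSCAFG00000019685 and ENSCAFG00000006881 had r = 0.65 and -0.17. These matches are the highest of 6502 by choice. For all 7 the permutation adjusted p of r lay between 0.0069 and 0.0096, and rho lay between 0.60 and 0.91. The permutation p of rho, 1e-05 for each, is unadjusted. It rests on the same tumours that picked the match, so it is no separate support. Without the 2 tumours farthest from the median r was 0.54 to 0.87, and it was 0.31 to 0.86 within tumours 27 to 36, 0.24 to 0.88 within tumours 37 to 46 and 0.47 to 0.92 within the other tumours.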

How the data were processed

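The authors' deposited table holds estimated counts for 28570 Ensembl identifiers and 59 libraries, with 0 columns left over. CEL-Seq2 is named in the labels' protocols, which speak of trypsinized cells. Per the submitters' processing notes, BWA and the build CanFam3.1 were used; which program counted, and with which annotation, is not given in the sources used here. All values (100%) lie on the set given by a correction for collisions among 4096 UMIs, which leaves up to 63 UMIs unchanged. They are whole, so none was rounded, and they were tested in place of the plain counts planned for.

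edgeR 4.0.16 (R 4.3.3) was used with filterByExpr by group, TMM factors and the robust quasi-likelihood F test, tumour against normal as the only term, all 59 libraries and Benjamini-Hochberg adjustment over 13004 genes. CPM are TMM-scaled, and log2 CPM has a prior count of 2. SEs were derived from each fold change and its F. Correlations used scipy 1.17.1 and numpy 2.4.6. The fits and the permutation test were tested on simulated data. Alternatives used DESeq2 1.42.0 and limma-voom with sample weights (limma 3.58.1). Others changed the scaling, filters, priors or UMIs, added a depth covariate or a block on title numbers, or left libraries out.

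The 7 genes, the lists and the tests were chosen with earlier results of these data known. Named besides them were the gene most like each over the tumours, and the called genes nearest the SD limit of 1.5; the rule planned only the one just above, and ENSCAFG00000019185 was added after its value was seen. Lists of cell type markers were planned but need symbols, and were not run. No 2 libraries were alike within sampling noise (lowest chi-square 4.56 per degree of freedom, tumours 44 and 45).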

Additional observations from a re-analysis of the deposited data

Results flagged for a closer look

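In 3 of the 7 genes the highest normal lay far from the other normals in CPM by Dixon's criterion, a scale added after the values in log2 CPM were seen. For ENSCAFG00000007276 normal 6 stood at 96.3 CPM, with a gap to the next normal of 0.57 of the range of the 10 normals (0.37 in log2 CPM). For ENSCAFG00000012976 normal 10 stood at 283 CPM, with a gap of 0.50 of the range (0.26 in log2 CPM). For ENSCAFG00000019685 normal 4 stood at 40.5 CPM, with a gap of 0.48 of the range (0.25 in log2 CPM). In log2 CPM none of the 7 genes passed the criterion. Chance alone passes about 1 group in 20. That rate does not hold here, since the genes were chosen with a limit on the SD of log2 CPM over these same normals. It was also not checked for values in CPM. The share of all genes tested that pass in CPM was not computed, so the count of 3 cannot be set against it. The gaps are therefore a description.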

How the results depend on the processing

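The 7 genes were chosen for a lower mean in tumours, so a kept direction or call is no sign of stability. All 7 were called lower with median ratio factors (as were 0.577% of all genes tested) and with library totals (0.131%). The same held with no filter (0.256%), the depth covariate (0.277%), without tumours 37 to 46 (0.429%) and without tumours 27 to 36 (0.256%). Limma-voom with sample weights called 5 (not ENSCAFG00000012976 or ENSCAFG00000029284) and 0.192% of all genes. Distinct UMIs called 6 (not ENSCAFG00000029284) and 0.528% of all genes. DESeq2 called all 6 to which it gave an adjusted p, and 1.11% of the 8214 genes to which it gave one. With each normal left out 5 to 7 were called, and 0.213% to 1.04% of all genes. Over tumours 1 to 10 and normals 1 to 10, edgeR called 0 of the 7 with the replicate block and 0 without it. It called 0.0102% and 0.0614% of 9769 genes in these fits, which used 20 libraries. The unadjusted edgeR p was under 0.05 for 7 of 7 in both fits, from libraries among those that chose the genes. The share of all 9769 genes at that unadjusted threshold was not computed, so this count supports nothing. Same-numbered libraries deviated together at over 0.1 in 5 of 10 pairs (-0.11 to 0.32), and the best match had the same number for 2 normals and 1 tumour, so the numbers were not taken as pairs. Over all genes tested, the middle log2 fold change was 0.18 with library totals alone, in place of 0.02. With such totals the tumours below every normal numbered 23 in place of 38 for ENSCAFG00000007276 and 12 in place of 6 for ENSCAFG00000009243. Without tumours 37 to 46 they numbered 9 in place of 14 for ENSCAFG00000012976, from fewer tumours. With each normal left out they ranged from 14 to 28 for ENSCAFG00000012976, 6 to 19 for ENSCAFG00000009243 and 9 to 25 for ENSCAFG00000029284. Positively related pairs among tumours fell from 2 to 1 with library totals, with r partial on depth and without tumours 37 to 46. In the same order 0.346%, 0.794% and 0.253% of the 91021 pairs were called positive, against 0.767% in the main setting. The cause was not tested. Among normals the permutation test called 0 pairs in each of the 12 alternatives run, with 3 to 6 pairs at an unadjusted p under 0.05, where 6.12% to 8.15% of all pairs were. Depth limits ENSCAFG00000019685 most, with a median of 6 counts per tumour.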

Other observations

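Some tumours stood at one end of the range for several of the 7 genes, and most did not. Tumour 48 was among the 5 highest tumours for 4 genes, with 231 CPM of ENSCAFG00000019204, 4003 CPM of ENSCAFG00000029284, 88.0 CPM of ENSCAFG00000012976 and 9.73 CPM of ENSCAFG00000019685. Tumour 33 was among the 5 lowest for 4 genes, with 24.1 CPM of ENSCAFG00000019204, 275 CPM of ENSCAFG00000029284, 7.80 CPM of ENSCAFG00000030565 and 0.65 CPM of ENSCAFG00000019685. Its level of ENSCAFG00000009243, 245 CPM, was above the tumour median of 152 CPM. Of the 49 tumours, 28 were among the 5 highest for 0 genes and 28 among the 5 lowest for 0 genes.

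Tumour 32 held the highest level of ENSCAFG00000019204 among tumours, 259 CPM, and the only count of 0 of ENSCAFG00000019685.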
